A study of Mus musculus with 6 samples.

Results

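The cluster n10-GC-4 is a small group of inhibitory interneurons of the mouse olfactory bulb, which the deposited annotation of neurons names as the fourth of its granule cell clusters. Its members were taken as every cell carrying that name in the annotation. There were 234 such cells among 21746 annotated neurons and 51426 annotated cells of the whole bulb. RNA of single cells was measured in 6 libraries, 2 per condition. All mice were C57BL/6NJ and 14 weeks old, and each library was a pool of 3 mice whose olfactory bulbs were dissociated with papain. Naris-occluded mice had 1 nostril closed for 6 weeks, and the study's text takes the closed side as the deprived sample. Trained mice received 6 weeks of olfactory training, in which mice deprived of water worked for a water reward. Trained and control mice may thus also differ by water deprivation and reward, since the study describes these for training only. Control mice are labelled as having no manipulation. A passage of the study's text instead takes the unblocked side of occluded animals as control, and which reading applies to these libraries was not settled, so a comparison of naris occluded with control may be between sides of shared animals. Replicate 1 of every condition came from male mice and replicate 2 from female mice, so the spread between replicates of a group also holds any difference between the sexes, and the mice of a pool cannot be told apart.

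Granule cells lie in the deep layers of the olfactory bulb, have no axon, and release GABA onto the dendrites of mitral and tufted cells, the output neurons of the bulb. Periglomerular cells are the interneurons around the glomeruli at the surface. Both kinds are added throughout life from neuroblasts that migrate into the bulb, and they pass through an immature stage marked by Sox11, a transcription factor of newborn neurons, before they join the circuit.

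Transcripts were counted as unique molecular identifiers (UMIs), so the counts are of molecules. Control mice gave 48 and 32 cells of n10-GC-4, naris-occluded mice 36 and 64, and trained mice 28 and 26, with replicate 1 given first here and throughout. Summed over these cells, the 6 libraries held 117769, 71896, 66588, 114790, 46038 and 55990 UMIs, 473071 in all, in the order control, naris occluded and trained. Cells of n10-GC-4 had a median of 1727.5 UMIs and 1044.5 genes, and 63 of them had fewer than 1000 UMIs. The median mitochondrial share of UMIs per cell was 8.16% and 8.08% for control, 13.8% and 6.78% for naris occluded, and 13.2% and 7.25% for trained. The whole libraries held between 6705 and 10570 cells. Levels are given in CPM, the UMIs of a gene per 1000000 UMIs of the cluster in a library, as mean ± SD over the 6 libraries unless stated otherwise.

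A pair of cells stood apart in depth. A cell of control replicate 1 held 22043 UMIs, 18.7% of the UMIs of n10-GC-4 in that library, and a cell of control replicate 2 held 10420, or 14.5%. The deeper cell had 1 UMI of Gad1, an enzyme of GABA synthesis, 0 of Slc32a1, the vesicular GABA transporter, and 11 of Omp, a gene of mature olfactory sensory neurons, as well as 23 of Etv1 and 3 of Slc17a6, a vesicular glutamate transporter. Whether it is a doublet that the authors' filter left in was not tested. Several results that rest on these cells are given with and without them. The level of Etv1, the summed sensory neuron genes and most other levels include them. Between libraries, 1461 of 49931 distinct barcodes occurred more than once. Of the cells of n10-GC-4, 11 shared a barcode with a cell of another library, and 0 barcodes were shared between n10-GC-4 cells of different libraries.

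Both genes that mark the cluster were present in every library, and neither was highest there. Slc32a1 stood at 297 and 278 CPM in control, 345 and 331 in naris-occluded and 304 and 411 in trained libraries, a mean of 328 ± 47.3. That mean ranked 6 of 18 neuronal types, under the interneurons of the external plexiform layer (n18-EPL-IN, 1454 ± 336), n14-GC-7 (714 ± 196), n07-GC-2 (598 ± 32.6), n05-PGC-2 (498 ± 130) and n12-GC-6 (356 ± 82.0). The gap to n12-GC-6 was smaller than the SD of either type. At least 1 UMI of Slc32a1 was found in 102 cells, 43.6% of n10-GC-4, at a median of 1727.5 UMIs per cell, against 4.92% of olfactory sensory neurons, which use glutamate, at a median of 808.5. With each cell thinned to 500 UMIs the shares were 18.4% and 2.92%.

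Sox11 stood at 178 and 139 CPM in control, 105 and 174 in naris-occluded and 217 and 250 in trained libraries. The mean of 177 ± 52.1 ranked 3 of 18, far under the immature neurons n04-Immature (2085 ± 98.4), under n09-GC-3 (232 ± 55.3), and over n08-PGC-3 (93.3 ± 42.4). The difference from n09-GC-3 was about the size of 1 SD. Sox11 was detected in 53 cells, 22.6% of the cluster, against 2.58% of olfactory sensory neurons, and after thinning the shares were 7.26% and 1.92%. Sox11 had a UMI in 22.5% of the cells with Slc32a1 and in 22.7% of the cells without it, so its detection did not separate the cells by that transporter.

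**Figure D1:**
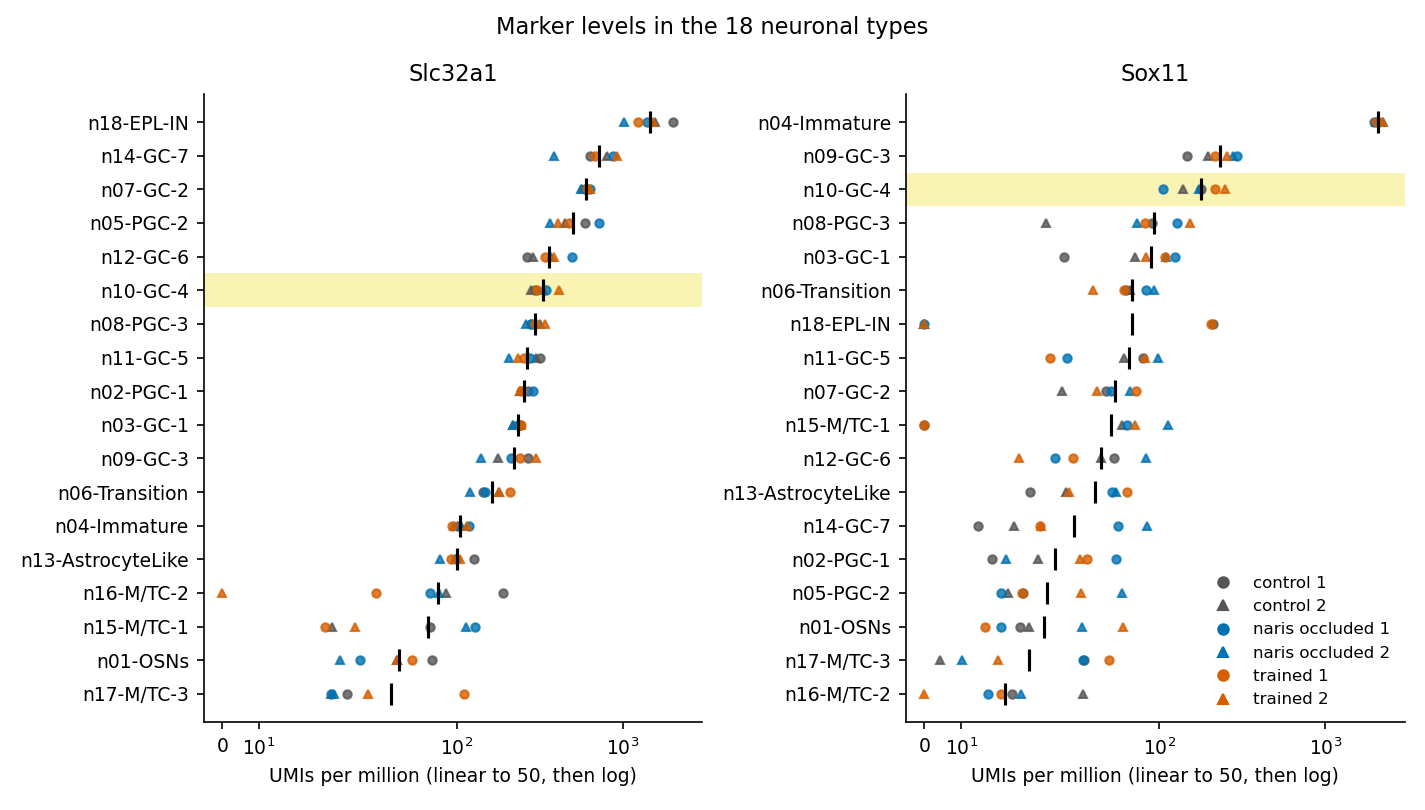
Level of Slc32a1 and Sox11 in the 18 neuronal types, in CPM on an axis that is linear near 0 and logarithmic above. Each point is 1 library and each black tick the mean of the 6 libraries, with n10-GC-4 shaded. Slc32a1 in n10-GC-4 lies within the range of the other GABAergic types, and Sox11 lies well under n04-Immature, whose mean was 2085 CPM.

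Transcripts for making or packing GABA were detected in most cells. Of 234 cells, 208 (88.9%) had at least 1 UMI of Gad1, Gad2 or Slc32a1, against 31.8% of the shallower olfactory sensory neurons, and after thinning to 500 UMIs the shares were 62.4% and 21.0%. Gad1 stood at 1440 ± 225 CPM, rank 3 of 18 after n12-GC-6 (2344 ± 263) and 1 other type. Gad2, the second form of the enzyme, stood at 304 ± 56.7 CPM, rank 6 of 18. A vesicular glutamate transporter, Slc17a6 or Slc17a7, was found in 5 cells (2.14%, under the 6.25% of olfactory sensory neurons), of which 1 lacked all 3 GABA genes. Th, the rate-limiting enzyme of dopamine synthesis, was found in 7 cells, and Omp in 5. Sox11 or Dcx, a microtubule protein of migrating neuroblasts, was found in 92 cells (39.3%), against 6.75% of olfactory sensory neurons. After thinning to 500 UMIs these shares were 16.7% and 4.25%.

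The name granule cell was less clear from the genes. Over 3431 genes, the profile of n10-GC-4 correlated most with n08-PGC-3 (r = 0.901 on log2 CPM + 10), then with n05-PGC-2 (0.883), n11-GC-5 (0.869), n09-GC-3 (0.862) and n03-GC-1 (0.861). The points are genes and share libraries and depth, so these values only describe order, and that order stayed when every type was thinned to 151751 UMIs, an alternative chosen after seeing the data. Within single libraries the order differed, and n11-GC-5 was the most alike type in 5 libraries and n03-GC-1 in 1. These single-library profiles were not thinned. Over all libraries n11-GC-5 held 3658426 UMIs and n03-GC-1 2818855, against 482384 in n08-PGC-3, and the part of depth in the change of order was not tested. In the authors' clusters of the whole bulb, 193 of the 234 cells (82.5%) fell in the neuron cluster N12, which also held 247 cells of n08-PGC-3, 180 of n09-GC-3 and 167 of n05-PGC-2.

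A cluster is defined by the same counts that describe it, so the values that set n10-GC-4 apart from other types are a description with no test. Of 1825 genes with at least 100 CPM in n10-GC-4, 106 had their highest mean there, and 7 were highest there in each of the 6 libraries. These 7 were Rrbp1, Gabra5, Sfrp1, Yjefn3, Cntn5, Rasgrf2 and Plcxd3. The 15 genes with the largest ratio over the next highest type led n10-GC-4 by between 0.56 and 3.05 on the log2 scale of CPM + 10.

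Calca, which encodes calcitonin and the neuropeptide CGRP, had the largest ratio over all 6 libraries (3.05). In the control libraries alone its ratio was 1.15, under Cadps2 at 2.47, and without naris-occluded replicate 1 it was 2.41, under Cadps2 at 2.49. It stood at 93.4 and 27.8 CPM in control, 390 and 200 in naris-occluded and 21.7 and 179 in trained libraries, a mean of 152 ± 138, against 9.61 CPM in the next type, n15-M/TC-1. The mean rests on few cells, since 73 UMIs came from 14 cells and 5 of these held 76.7% of them. Yjefn3, annotated on chromosome 8 at 69887788 to 69893983 (GRCm38.p6), followed at 2.23. Its levels were 306 and 320 CPM in control, 736 and 706 in naris-occluded and 130 and 357 in trained libraries, with 82.7 CPM in n12-GC-6, the next type. Cadps2, which primes dense-core vesicles for release, was higher by 2.21 and stood at 144, 278, 165, 87.1, 0 and 268 CPM in the same order of libraries. Parm1 was higher by 1.57 and stood at 357, 334, 135, 69.7, 21.7 and 304 CPM.

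The UMIs of other leading genes were less concentrated in a few cells, though some of these genes also varied widely between libraries. The top 5 cells held 26.5% of the UMIs of Sfrp1 and 12.9% of those of Lgr4, against 55.3% for Yjefn3. Sfrp1, a secreted antagonist of Wnt ligands, stood at 114 ± 49.7 CPM, with a log2 ratio of 1.52. Rrbp1, a ribosome-binding protein of the endoplasmic reticulum, stood at 238 and 223 CPM in control, 571 and 244 in naris-occluded and 217 and 393 in trained libraries, against 134 ± 35.1 in n18-EPL-IN. Lgr4, a receptor for R-spondins, which amplify Wnt signals, stood at 365 ± 192 CPM against 201 ± 30.7 in n07-GC-2, and its value in trained replicate 2, 750 CPM, was the highest of the 6. It was over the next type in 5 of 6 libraries and was found in 94 cells. Gfra2, the receptor of the growth factor neurturin, stood at 220 ± 109 CPM, between 86.9 in trained replicate 1 and 405 in naris-occluded replicate 1. Gabra5, the alpha 5 subunit of the GABA-A receptor, had a narrow spread, at 297 and 278 CPM in control, 420 and 401 in naris-occluded and 369 and 429 in trained libraries, against 250 ± 24.2 in n11-GC-5. It was found in 104 cells, 44.4% of the cluster.

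**Figure D2:**
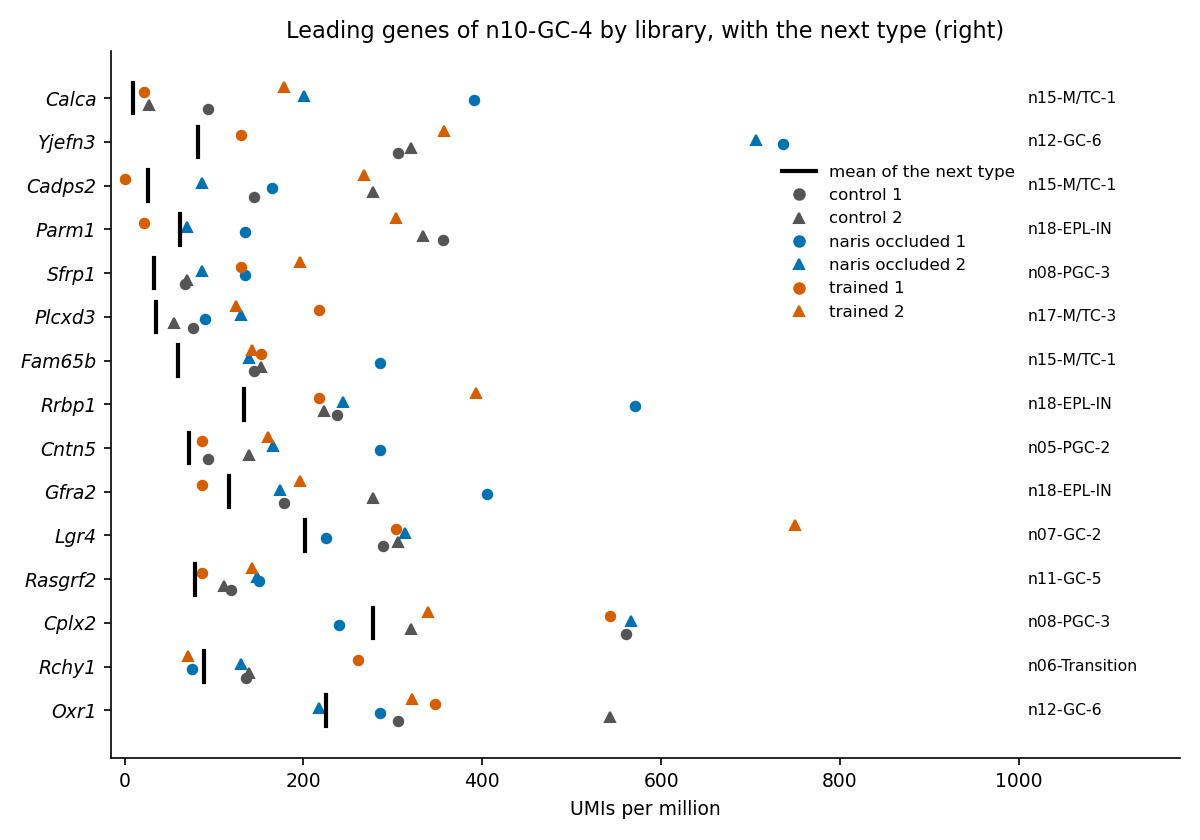
Levels of the 15 genes with the largest ratio of n10-GC-4 over the next highest type, in CPM. Each point is 1 library, and the black bar is the mean of the next type. Calca, Yjefn3, Cadps2 and Parm1 vary widely between libraries, whereas Rasgrf2 (126 ± 25.1 CPM) varies little.

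The genes of GABA receptors and synapses were also compared with the mean of the other 7 types named granule or transition cells. Of 2032 genes that reached 100 CPM on either side, 88 were at least 2-fold higher in n10-GC-4 and 107 at least 2-fold lower, with a median log2 ratio of 0.17. Of the 2032, 1825 reached 100 CPM in n10-GC-4, and the rest entered only through the other types and so had to be lower. In the same way, genes under 100 CPM in the other types entered only through n10-GC-4 and so had to be higher. Both limits hold for the counts of higher and lower genes in each list below. Among 5 GABA-A receptor subunits compared, Gabra5 was more than 2-fold higher, Gabra2 was lower (126 ± 45.2 against 312 CPM), and the median was 0.51. Gabrg3, a gamma subunit, also had its highest mean of the 18 types in n10-GC-4 (89.0 ± 52.2 CPM). Of 8 ionotropic glutamate receptor subunits, 0 were 2-fold higher and 3 were lower, with a median of −0.79. The 3 were the AMPA receptor subunit Gria2 (659 ± 112 against 1667 CPM) and the NMDA receptor subunits Grin1 (122 ± 86.6 against 311) and Grin2b (345 ± 101 against 929). Of 20 synaptic vesicle genes, 3 were higher and 0 lower, with a median of −0.01. Synpr, a synaptic vesicle membrane protein, had its highest mean of the 18 types there (1971 ± 371 CPM, against 1762 in n07-GC-2) and was found in 217 cells. Cplx2, a complexin that binds the fusion complex, was also highest there (428 ± 145 against 277 CPM in n08-PGC-3).

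Of 12 immature neuron genes compared, 1 was at least 2-fold higher than in the other granule types and 0 were lower, with a median of 0.49. That gene was Stmn1, a regulator of microtubules, at 953 ± 140 against 441 CPM, and n04-Immature stood at 4014. Dcx stood at 199 ± 66.8 CPM, under the mean of the other granule types (254). Of 30 listed transcription factors of interneurons, 16 reached 100 CPM in n10-GC-4 and 0 had their highest mean there. Of 21 compared, 3 were at least 2-fold higher and 7 lower, and 5 of the 21 entered only through the other types. Foxp2 stood at 284 ± 88.7 CPM against 15.9 in the other granule types, a log2 ratio of 3.50, but was highest in n08-PGC-3 (830 ± 77.1). It entered only through n10-GC-4, so it had to be higher than in the other granule types. Nfib and Nfix, nuclear factor I proteins, were higher by 1.12 and 1.42. Zeb2 (90.0 ± 27.1 against 480 CPM), Zic1 (38.8 ± 19.1 against 209) and Mef2c (328 ± 143 against 1016) stood under the other granule types. The other lower factors were Etv1 (log2 ratio −1.63), Bcl11a (−1.43), Bcl11b (−1.34) and Sp8 (−1.03). Meis2, common to bulb interneurons, was close to the other granule types at 1699 ± 175 CPM against 1534.

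Of 19 granule cell subtype genes, 6 reached 100 CPM in n10-GC-4 and 0 had their highest mean there. These genes were listed because they mark other granule types, and the genes with the lowest ratios were picked for them, so the values are given as levels only. Cpa6, a carboxypeptidase, had 0 UMIs in n10-GC-4 against a mean of 142 CPM in the other types. A count of 0 allows up to 3 UMIs in the 473071 of the cluster, or 6.34 CPM, with counting error only taken into account. Cpa6 entered the comparison only through the other types, so it had to be lower. Kcnip2, a potassium channel partner, stood at 31.3 ± 18.4 CPM against 1712 ± 189 in n09-GC-3. Calb2, the calcium buffer calretinin, stood at 273 ± 320 CPM against 13129 in n03-GC-1, and 48 of its 123 UMIs came from 1 cell of naris-occluded replicate 1. Rprm (24.3 ± 27.4 against 307 CPM), Syt10, a synaptotagmin (9.82 ± 16.2 against 157), and Penk, the enkephalin precursor (29.2 ± 21.2 against 194), stood lower too. A listed gene that stood higher was Gucy1a3, a subunit of the nitric oxide receptor guanylate cyclase, at 471 ± 101 against 90.9 CPM, which was highest in n08-PGC-3 (1803). Gucy1a3 entered only through n10-GC-4, so it had to be higher than in the other granule types.

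Of 11 listed markers of periglomerular cells, 1 reached 100 CPM in n10-GC-4, and that gene was Calb2, which was highest in the granule cell type n03-GC-1. The list summed to between 214 and 1141 CPM in single libraries, and since Calb2 is part of it, that sum does not measure likeness to periglomerular cells. Calb1, the calcium buffer calbindin, stood at 58.9 ± 54.1 CPM against 809 in n08-PGC-3, Th at 20.3 ± 22.4 against 1277 in n05-PGC-2, and Slc6a3, the dopamine transporter, had 0 UMIs.

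Of 12 neuropeptide and granin genes compared, 9 of which reached 100 CPM in n10-GC-4, 3 were at least 2-fold higher than in the other granule types and 4 lower, with a median of 0.02. Cck, which encodes cholecystokinin, stood at 382 and 417 CPM in control, 571 and 401 in naris-occluded and 456 and 518 in trained libraries. Its log2 ratio over the other granule types was 2.50, and n16-M/TC-2 was higher, at 3923 CPM. Vgf, a granin-like precursor, stood at 533 ± 212 CPM against 95.6, and Chga, chromogranin A, at 162 ± 107 against 65.3. Vgf and Chga entered only through n10-GC-4, so they had to be higher. The 4 lower genes were Penk, Npy, neuropeptide Y, at 315 ± 127 against 743 CPM, Scg2, secretogranin II, at 297 ± 95.8 against 613, and Cartpt, a peptide precursor, at 19.9 ± 24.6 against 115. Pcp4, a regulator of calmodulin, stood at 5069 and 8916 CPM in control, 5391 and 5689 in naris-occluded and 2650 and 8198 in trained libraries, second to n11-GC-5 (6900 ± 573). Trained replicate 1 was the lowest of the 6 libraries for Pcp4 and Parm1 and had 0 UMIs of Cadps2.

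The 44 genes that the study listed as markers of n10-GC-4 were chosen on these samples and are not independent evidence. Of these, 18 had their highest mean in n10-GC-4, 10 were at least 2-fold higher than in the other granule types and 0 lower, with a median log2 ratio of 0.72.

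Markers of other cell types were also detected, and of the lists given here that of astrocytes had the highest summed level. Summed over each list, olfactory sensory neuron genes came to between 514 and 934 CPM in the 6 libraries, rank 17 of 18 types, with Cnga2 at 0. Mitral and tufted cell genes came to between 61.0 and 181 CPM, against 6724 in n17-M/TC-3. Astrocyte genes came to between 2170 and 2233 CPM in control, 3389 and 4085 in naris-occluded and 2715 and 3497 in trained libraries. Their mean of 3015 CPM ranked 16 of 18 types, against 13817 in n13-AstrocyteLike, and 6 of the 10 genes reached 100 CPM. For scale, the 7 genes of GABA synthesis, packaging and uptake summed to 2920 CPM in n10-GC-4. Genes of olfactory ensheathing cells, the glia around olfactory axons, came to between 518 and 640 CPM in control, 1220 and 1532 in naris-occluded and 717 and 1000 in trained libraries. Lists of other kinds did not overlap between control and naris occluded either. GABA-A receptor subunits came to 1112 to 1238 against 1420 to 1517 CPM. Receptors of GDNF and neurotrophins went the other way, at 1401 to 1641 against 1171 to 1193 CPM. Of 1491 single genes tested, 15.9% had both naris-occluded libraries over both control libraries, and 19.5% had both trained libraries over them. Oligodendrocyte genes summed to between 886 and 1499 CPM with Mag and Cldn11 at 0, microglia genes to between 97.4 and 296, endothelial genes to between 144 and 268, and red blood cell genes to between 55.6 and 218 with Alas2 at 0. Free RNA enters droplets from other cells and was not removed from the counts.

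Some of these genes were found in the same cells and others were not. Calca was detected in 14 cells, Cadps2 in 18, Parm1 in 23, Yjefn3 in 50, Cck in 49, Gm12027 in 37, Cbln2, a synaptic organizer of the cerebellin family, in 45, and Foxp2 in 61. Of the 14 Calca cells, 9 (64.3%) held Cadps2, against 4.09% of the other cells, and 10 (71.4%) held Parm1, against 5.91%. Of the 18 Cadps2 cells, 14 (77.8%) held Parm1, against 4.17% of the others, and of the 23 Parm1 cells, 18 (78.3%) held Yjefn3, against 15.2%. Depth differed between these cells, with a median of 3360 UMIs in Cadps2 cells and 1687.5 in the others. After thinning to 500 UMIs, 6 of 8 Calca cells held Cadps2, 3 of 8 held Parm1, and 3 of 10 Cadps2 cells held Parm1. Of the 61 Foxp2 cells, 0 held a UMI of Parm1, against 13.3% of the other cells, and 8 (13.1%) held Cbln2, against 21.4%. The pairs given here are some of many, and Calca and Calb1 also shared 0 cells. Cells of a library are not independent, so no test was made on these pairs. These shares are of cells with a UMI and do not show that a cell lacks the gene. Of the 37 Gm12027 cells, 17 (45.9%) held Cck, against 16.2% of the others.

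**Figure D3:**
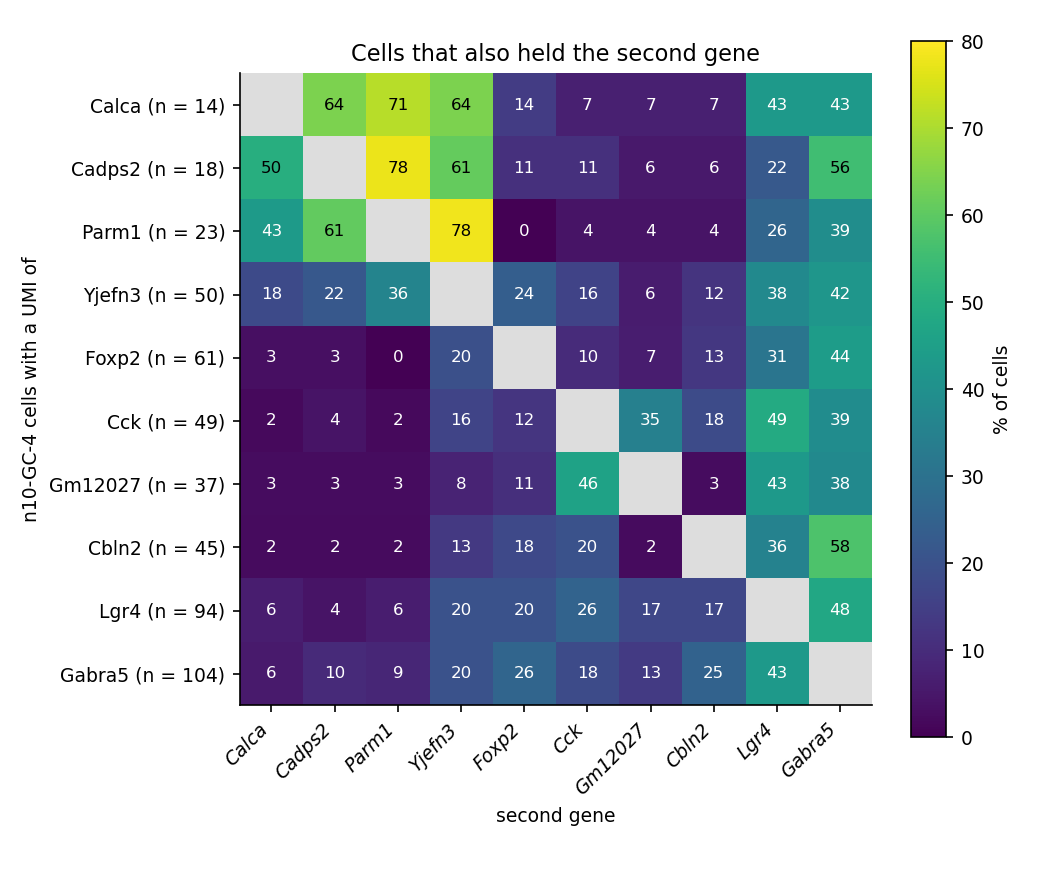
Detection of 10 genes in the same cells of n10-GC-4. Each square gives the percent of the cells with the row's gene that also hold at least 1 UMI of the column's gene. Calca, Cadps2 and Parm1 share cells, and none of the 61 Foxp2 cells held Parm1.

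To describe the cells behind Calca, the cells with a UMI of at least 2 of Calca, Cadps2 and Parm1 were set aside as a group, a choice made after these values were seen, so no test was made. There were 15 such cells, 4 and 3 of them from control, 2 and 3 from naris-occluded and 0 and 3 from trained mice. Their median was 3345 UMIs, and 9 held all 3 genes. All 15 held Gad1, at 1111 CPM over the set against 1428 in the other 219 cells. The set includes the cell of 22043 UMIs, without which the other 14 cells had Gad1 at 1697 CPM and Slc32a1 at 399.

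Several further genes were higher in these 15 cells. Rab3b, a small GTPase of secretory vesicles, was found in 13 of 15 and stood at 1014 CPM against 53.5 in the other cells. Yjefn3 stood at 2141 against 200 CPM, and 133 of its 215 UMIs in the cluster lay in the set. Pcp4 stood at 17370 against 4263 CPM. Without the deepest cell Rab3b, Yjefn3 and Pcp4 stood at 1248, 3269 and 26850 CPM.

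Other genes were lower or missing there. Foxp2 had 0 UMIs of 62117 in the set, against 319 CPM in the other cells. All 15 cells held Parm1, and 0 of the 61 Foxp2 cells did, so this 0 was fixed by the choice of the set. Cck stood at 16.1 against 506 CPM, and only 1 of the 23 Parm1 cells held it. Gria2 was found in 2 of 15 cells against 130 of 219 and stood at 32.2 against 749 CPM, and Meis2 stood at 773 against 1806. Without the deepest cell Cck, Gria2 and Meis2 stood at 25.0, 49.9 and 1148 CPM. Of the remaining cells, 60 held none of the 7 genes Calca, Cadps2, Parm1, Foxp2, Cck, Gm12027 and Cbln2, at a median of 1183 UMIs.

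The share of n10-GC-4 among adult-born neurons, the 12 types that the study counted as such, was compared between conditions with the library as the unit. It was 1.50% (95% exact interval 1.11 to 1.98, 48 of 3203 cells) and 1.44% (0.984 to 2.02, 32 of 2228) in control libraries. It was 1.54% (1.08 to 2.13, 36 of 2335) and 2.19% (1.69 to 2.78, 64 of 2926) in naris-occluded libraries, and 0.839% (0.558 to 1.21, 28 of 3336) and 1.14% (0.748 to 1.67, 26 of 2274) in trained libraries. These intervals cover counting error only. Both trained libraries lay under all 4 others, and both naris-occluded libraries lay over both control libraries, an order that did not hold in cells with at least 1000 UMIs.

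None of the 3 differences in share passed the test. By edgeR's quasi-likelihood test over the 12 types with Benjamini-Hochberg adjustment, naris occluded against control gave a log2 difference of 0.35 ± 0.36 (SE, adjusted p = 0.501) and trained against control −0.59 ± 0.39 (adjusted p = 0.546). Trained against naris occluded gave −0.94 ± 0.38, with an adjusted p of 0.0529 by the same edgeR test and a range of p over its alternatives from 0.0345 to 0.628. The exact two-sided permutation test gave p = 0.333 for each comparison, the smallest value that 2 libraries against 2 allow. In cells with at least 1000 UMIs, the difference between naris-occluded and control libraries turned to −0.083, where the shares were 2.13% and 1.97% in control and 1.40% and 2.47% in naris-occluded libraries. In those cells the trained libraries stood at 0.997% and 1.44%, so trained and naris-occluded libraries overlapped as well. The share of cells is also a share of what survived dissociation and capture, so fewer cells in the bulb and fewer cells recovered cannot be told apart.

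**Figure D4:**
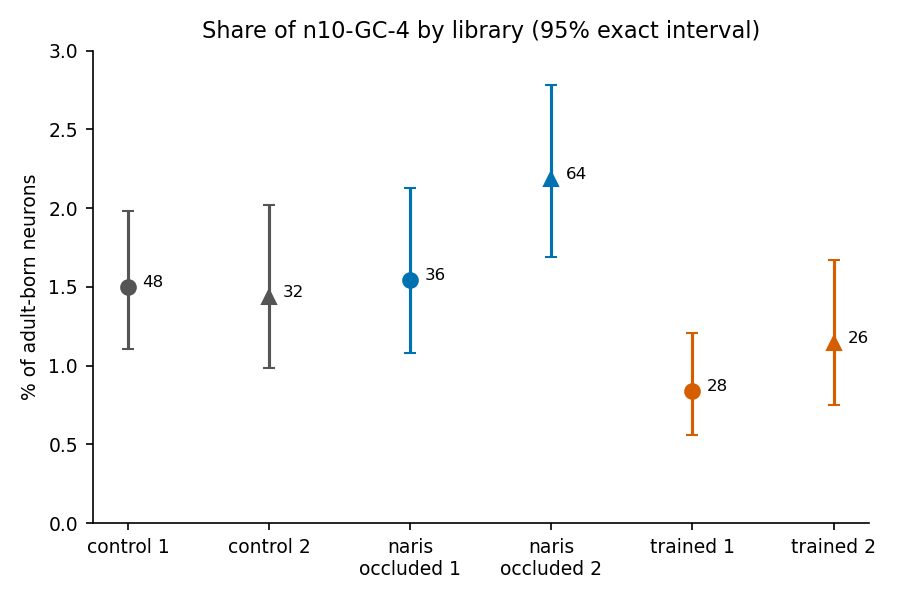
Share of n10-GC-4 among adult-born neurons in each library, in percent, with exact 95% binomial intervals and the number of n10-GC-4 cells beside each point. The trained libraries (0.839% and 1.14%) are the lowest, and naris-occluded replicate 2 (2.19%) is the highest.

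Genes of n10-GC-4 were then compared between conditions on counts summed over its cells in each library. Of 1491 genes tested, edgeR's quasi-likelihood test called 0 (0%) at an adjusted p under 0.05 in each of the 3 comparisons. At an unadjusted p under 0.05 there were 87 genes for naris occluded against control, 67 for trained against control and 57 for trained against naris occluded. With no difference, 5% of the 1491 genes, or 74.55, would be expected in each. DESeq2 also called 0 in each, with 22, 12 and 12 genes at an unadjusted p under 0.05. The median SE of a log2 difference was 0.38, 0.42 and 0.42. In naris occluded against control, 15.9% of the genes had both naris-occluded libraries over both control libraries and 17.3% had both under.

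For naris occluded against control, the 3 genes with the smallest unadjusted p were Stmn2, Npy and Apod, each with an adjusted p of 0.183 by edgeR. Stmn2, a regulator of microtubules in growing neurites, stood at 314 and 320 CPM in control and 45.1 and 95.8 in naris-occluded libraries, a log2 difference of −2.04 ± 0.45. The deepest cells held 23 of its 37 and 12 of its 23 UMIs in the control libraries, and without them the difference was −1.05 (edgeR adjusted p = 0.996). Npy stood at 119 and 195 CPM in control and 405 and 427 in naris-occluded libraries (1.47 ± 0.35). The trained libraries, at 369 and 375 CPM, also lay over control for Npy (1.27 ± 0.38, edgeR adjusted p = 0.975).

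Apod, a lipid carrier abundant in glia, stood at 84.9 and 97.4 CPM in control and 285 and 279 in naris-occluded libraries (1.63 ± 0.39). With all 4 control and naris-occluded libraries kept, Stmn2, Npy and Apod passed the edgeR test when trained replicate 1 or 2 was left out, with adjusted p between 0.00662 and 0.0436. Npy and Apod both belong to the list of olfactory ensheathing cell genes, and with Fabp7 they make up most of its summed level in control replicate 1 and naris-occluded replicate 1, so that sum is no separate measurement. Of that list 3 of 6 genes were tested with 0 passing, and the third, Fabp7, had a log2 difference of 1.08, with 30 of its 50 UMIs in naris-occluded replicate 1 held by 1 cell. Of the astrocyte genes, which include Fabp7, 4 of 10 were tested, with 0 passing and a median of 0.92 beside −0.01 over all genes tested. Other lists did not overlap between control and naris occluded either, such as the microglia genes, at 97.4 to 136 against 195 to 296 CPM. In the other neurons Npy stood at 666 and 518 CPM in control and 523 and 607 in naris-occluded libraries. Apod stood there at 367 and 389 against 340 and 344 CPM. In the whole libraries, over all cell types, Npy stood at 3639 and 3606 against 4348 and 4172 CPM. Apod stood at 2845 and 2985 against 3619 and 2930 CPM in these. The part of other cells' RNA in the values of Npy and Apod was not tested.

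For trained against control, Mef2c, a transcription factor of maturing neurons, stood at 187 and 167 CPM in control and 543 and 393 in trained libraries (a log2 difference of 1.33 ± 0.36, edgeR adjusted p = 0.966). The libraries of the compared groups did not overlap for this gene, which was also so for 19.5% of all tested genes in that direction and 16% in the other.

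For trained against naris occluded, Yjefn3 stood at 736 and 706 CPM in naris-occluded and 130 and 357 in trained libraries, a log2 difference of −1.55 ± 0.35 with an edgeR adjusted p of 0.275. Single cells held much of it, with 1 cell holding 23 of 49 UMIs in naris-occluded replicate 1, 1 cell 47 of 81 in naris-occluded replicate 2, and 1 cell 12 of 20 in trained replicate 2. Without trained replicate 2 it passed the edgeR test (−2.47, adjusted p = 0.00666). Ptgds, prostaglandin D synthase, stood at 661 and 810 against 369 and 268 CPM (−1.27 ± 0.30, edgeR adjusted p = 0.275). In naris-occluded replicate 2, 1 cell held 22 of its 93 UMIs. In the whole libraries, over all cell types, Ptgds stood at between 3201 and 5234 CPM, and the part of other cells' RNA in its values was not tested. Calb2 stood at 916 and 227 against 109 and 89.3 CPM (−2.48 ± 0.63, edgeR adjusted p = 0.400), and 1 cell held 48 of the 61 UMIs in naris-occluded replicate 1. Calb2 passed the edgeR test without naris-occluded replicate 2 (adjusted p = 0.000534) and without the filter on low counts (adjusted p = 0.00294). In the other neurons Calb2 stood at 2924 and 3020 CPM in naris-occluded and 1245 and 1464 in trained libraries, the same direction, and the part of their RNA in the n10-GC-4 values was not tested. In this direction 13.7% of all tested genes did not overlap, and 19.1% in the other.

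**Figure D5:**
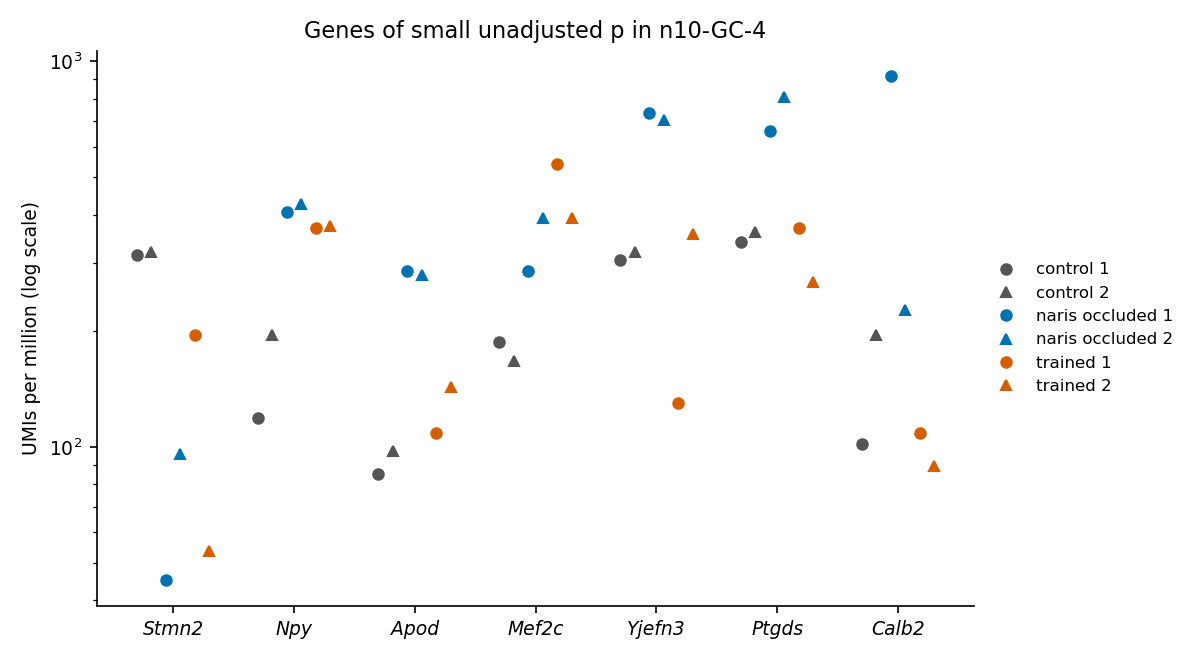
Levels of 7 genes with a small unadjusted p in 1 or more of the 3 comparisons, in n10-GC-4 by library, in CPM on a log axis. Npy and Apod are lowest in the 2 control libraries, Stmn2 is highest there, and none of the 7 passed the edgeR test after adjustment with all 6 libraries and the filter on low counts.

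The gene lists were also counted by comparison. All 44 study markers were tested, with 0 called in each comparison and medians of 0.10, 0.16 and 0.03, in the order naris occluded against control, trained against control and trained against naris occluded. The 6 tested genes of GABA synthesis, packaging and uptake had medians of 0.26, 0.34 and 0.08, and the 11 immature neuron genes −0.09, 0.00 and 0.12, with 0 called. The medians over all 1491 genes were −0.01, −0.03 and −0.01. The 9 tested neuropeptide and granin genes had medians of 0.61, −0.08 and −0.52, again with 0 called.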

How the data were processed

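The authors made 10x Chromium 3′ v2 libraries, and deposited raw UMI counts per gene and cell, with annotations of the library and cluster of each cell. The submitters' processing notes name Cell Ranger 2.0.0, Seurat 2.2.1 and the build mm10. The authors kept cells with at least 200 genes, regressed out the number of molecules and mitochondrial genes before clustering, and removed doublets, so no doublet caller was run. Their log-normalized table was not used. In both trained libraries the prefix in a cell's name disagrees with the annotated library, and the annotated library was kept after a check with Xist and Y-linked genes. Of 52549 barcodes, 1123 without a cluster were left out.

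For each type and library, the counts of its cells were added up. Ratios used a pseudocount of 10 CPM, and genes of at least 100 CPM on the higher side. For shares of cells with a UMI, each cell was also thinned to 500 UMIs. All n10-GC-4 cells had at least 527 UMIs. Intervals are exact Clopper-Pearson. The limit for a count of 0 is 3 counts, taken over the UMIs named.

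Conditions were compared on summed counts of all 6 libraries with edgeR 4.0.16 (quasi-likelihood, TMM factors, its filter on low counts, Benjamini-Hochberg at 0.05) in R 4.3.3, with DESeq2 1.42.0 as an alternative. Shares used the same test on cell numbers of 12 types with their total as offset. Statistics were tested on simulated data. Other values were computed in Python 3.11.15 with numpy 2.4.6, scipy 1.17.1 and pandas 2.3.3. Coordinates are from RefSeq on GRCm38.p6.

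Named genes were the 15 with the largest ratio over the next type, the 10 most above and the 10 most below the other 7 granule and transition types, members of the gene lists, and the 3 of smallest unadjusted p where none passed, and a few of these are not reported here. Other genes named for the set of 15 cells were chosen after their values were seen. The members and lists were chosen with earlier results of these data known. Replicates are pools of different mice of opposite sex. A check for libraries deposited more than once compared the counts of n10-GC-4 between the 2 libraries of each condition. No such pair lay within sampling noise, with a chi-square per degree of freedom of 1.31 in control, 1.51 in naris-occluded and 1.23 in trained libraries.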

Additional observations from a re-analysis of the deposited data

How the results depend on the processing

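Without the filter on low counts, 13286 genes were tested. Of these, edgeR called 10 for naris occluded against control, 1 for trained against control and 1 for trained against naris occluded. Leaving out 1 library at a time gave between 0 and 8, 0 and 5, and 0 and 3 calls. For naris occluded against control, 8 genes were called without trained replicate 1, 7 without trained replicate 2 and 2 without naris-occluded replicate 2. For trained against control there were 5 without trained replicate 2, and for trained against naris occluded 3 without it and 1 without naris-occluded replicate 2. Stmn2, Npy, Apod, Yjefn3 and Calb2 were among these calls, and Stmn2 and Calb2 among those without the filter. The fits with 1 library left out rest on a single library in 1 group, assumed to vary like the others. The fits without the filter keep all 6 libraries. The cause of the calls was not tested. The share in naris occluded against control was reversed, at −0.083, in cells with at least 1000 UMIs, and lay between 0.07 and 0.57 with 1 library left out. The share in trained against naris occluded was past the threshold over all 18 types (−1.10, edgeR adjusted p = 0.0443), and lay between −1.16 and −0.66 with 1 library left out, past it without naris-occluded replicate 1 (edgeR adjusted p = 0.0345) and without trained replicate 2 (0.0466). Trained against control lay between −0.80 and −0.36. Slc32a1 was 417 CPM as a mean of single cells and 279 in cells with at least 1000 UMIs, and 311 to 338 with 1 library left out, as Sox11 was 163 to 192. The number of genes highest in n10-GC-4 was 162 in control libraries alone, 217 at a minimum of 50 CPM, 7 if required in each library, and 91 to 131 with 1 library left out. Without the 2 cells over 6000 UMIs, an alternative chosen after seeing the data, it was 95.

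Same-numbered libraries shared a number and the sex of the pool, but over 1491 genes their deviations correlated by only 0.19, 0.12 and 0.02. With the replicate number as a block, 0 genes were called in each comparison (100, 75 and 59 at an unadjusted p under 0.05), and the shares were 0.32, −0.60 and −0.92, with edgeR adjusted p of 0.524, 0.541 and 0.0724. The fewest cells of a library were 26, in trained replicate 2, and the fewest UMIs 46038, in trained replicate 1.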

Other observations

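Of 25 listed potassium channel genes, 3 reached 100 CPM in n10-GC-4 and 0 had their highest mean there. Levels are set beside the mean of the other 7 granule and transition types, and those under 100 CPM in n10-GC-4 were compared only because they reached it there. Of 9 genes compared, 0 were at least 2-fold higher and 5 lower, with a median log2 ratio of −1.04. All but 3 of the 9 entered only through the other types and so had to be lower. Kcnd2, a subunit of A-type channels, stood at 119 ± 51.3 CPM against 275, and Kcnb2, a delayed rectifier subunit, at 88.9 ± 21.4 against 193. Kcnh7 stood at 36.7 ± 21.0 against 184 and the inward rectifier Kcnj4 at 30.6 ± 24.1 against 193. Kcnc1, a fast delayed rectifier, stood at 153 ± 54.6 against 102 CPM.

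Of 7 cadherins and protocadherins compared, 6 of which reached 100 CPM in n10-GC-4, 1 was higher and 1 lower, with a median of 0.06. Pcdh8 stood at 176 ± 49.8 CPM against 44.8 in the other granule types and had its highest mean of the 18 types in n10-GC-4. It entered only through n10-GC-4, so it had to be higher than in the other granule types. The lower gene, Pcdh9, stood at 78.5 ± 24.7 against 170, and entered only through the other types, so it had to be lower. Xist, expressed from the inactive X chromosome, had 0 UMIs in n10-GC-4 in each replicate 1 library and 169, 306 and 135 in replicate 2 of control, naris occluded and trained.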
